A study of Mus musculus with 56 samples.

Results

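Bacterial communities in the contents of the small intestine (SI) and of the large intestine (LI) were compared within male melanocortin 4 receptor knockout (MC4R KO) mice on a normal diet (KO-ND). The comparison took the 16 KO-ND libraries, 8 from SI and 8 from LI, of the 56 libraries of the study, and it took libraries with the same number as the same mouse, which gave 8 of 28 mice. All KO-ND mice carried the MC4R knockout, had been on chow and then on the normal diet before grouping, and stayed on it for another 12 weeks, starting at an age of 10 weeks and housed singly. SI contents came from a short stretch that began at the midpoint between pylorus and cecum. LI contents came from a short stretch that began at the midpoint between cecum and anus. The other groups, used for comparison only, were 6 wild-type C57BL/6 J mice fed the normal diet (WT-ND), 6 wild-type mice fed a Western diet (WT-WD) and 8 MC4R KO mice fed the Western diet (KO-WD). Wild-type mice were purchased and MC4R KO mice were generated separately, so genotype went with the source of the animals. The paper states that all mice shared a room and that an influence of breeding origin cannot be fully excluded. What was measured was the V3-V4 region of the bacterial 16S rRNA gene, as counts of amplicon sequence variants (ASVs, distinct sequences left after noise removal). All levels are shares of a library's counts, so the number of bacteria per gram was not measured, and a higher share can stand for more of one taxon or less of the others.

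MC4R is a receptor of the brain's satiety circuits, and its loss makes mice overeat and gain fat. The small intestine moves its contents quickly, receives bile acids and holds some oxygen, and it is known for lactobacilli and other fast-growing bacteria that use simple sugars. The large intestine is slower and nearly free of oxygen, and it is known for strict anaerobes that ferment fibre and host mucus glycans, among them Bacteroidales, Lachnospiraceae and Ruminococcaceae.

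Library totals ran from 22891 to 33815 counts in SI (median 27064) and from 25776 to 33119 in LI (median 29834). A taxon without a count in any of the 8 libraries of a site was given a nominal limit on its share of 0.00137% in SI and 0.00126% in LI. That is what 3 counts make of the site's pooled counts, and it covers counting error only. The smallest count above 0 was 2, so single reads may be hidden and a true share may lie above this limit. Of the taxa that background knowledge ties to one site, the 6 large intestinal ones (Muribaculaceae, Lachnospiraceae, Ruminococcaceae, Rikenellaceae, Mucispirillum and Desulfovibrionaceae) all had a higher mean share in LI. Of the 4 small intestinal ones, Lactobacillus and Streptococcus were higher in SI in 8 of 8 mice, Turicibacter was found in 3 mice only, and Candidatus Arthromitus had no count in any library of the study.

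Mouse 5 stood apart from the other mice in both sites. The mean Bray-Curtis distance (0 for identical, 1 for no shared composition) of its SI library to the other 7 was 0.826, against 0.338 to 0.408 for the other mice, and that of its LI library was 0.698, against 0.439 to 0.532. In its SI library Clostridium held 25.3%, Turicibacter 21.7% and SMB53 9.29%, whereas Lactobacillus, Bifidobacterium and Allobaculum together dominated the other 7 SI libraries. Several SI means below rest on this mouse, and some of them are also given without it.

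The SI libraries were made up mainly of Lactobacillus (32.2% ± 13.3, SD, n = 8), Allobaculum (27.3% ± 12.3) and Bifidobacterium (17.6% ± 9.51). In LI the same genera stood at 18.2% ± 11.4, 21.9% ± 12.9 and 7.66% ± 6.58, and unnamed Muribaculaceae (9.79% ± 3.23), [Prevotella] (6.25% ± 5.43) and SMB53 (4.77% ± 6.09) followed. Without mouse 5 the SI means of Lactobacillus, Allobaculum and Bifidobacterium were 35.7%, 30.7% and 20.0%. At the level of phyla, Bacteroidetes averaged 0.867% ± 1.54 in SI and 21.1% ± 10.7 in LI and was higher in LI in 8 of 8 mice (log2 fold change 6.12, SE 1.00, edgeR adjusted p = 0.000508). Proteobacteria (0.102% ± 0.206 in SI and 2.59% ± 2.05 in LI, log2 fold change 7.74, SE 1.85, adjusted p = 0.00517) and Tenericutes (0.0144% ± 0.0306 and 0.0742% ± 0.0691, log2 fold change 4.09, SE 1.37, adjusted p = 0.035) were higher in LI too. The call of Proteobacteria was lost without mouse 3, and that of Tenericutes without mouse 1, 4, 7 or 8, with DESeq2 or centred log ratios, without the filter on low counts and without the block. Without mouse 5 the SI means were 0.331% for Bacteroidetes and 0.00419% for Tenericutes. These calls made 3 of 7 phyla tested (42.9%). By the main edgeR fit 0 phyla (0%) were called lower in LI at this threshold, where 4 of 7 phyla had an unadjusted p under 0.05. Firmicutes had a share of 75.7% ± 7.39 in SI and 63.8% ± 8.18 in LI (log2 fold change -0.25, SE 0.12, adjusted p = 0.0738), and Actinobacteria 22.5% ± 10.0 and 10.6% ± 8.08 (log2 fold change -1.76, SE 0.74, adjusted p = 0.0629). Both were lower in LI in 7 of 8 mice, and both missed the threshold. DESeq2 called 2 phyla lower in LI, and limma on centred log ratios 3. The edgeR fit of all 4 groups and the exact sign-flip test called 2 lower each. The paired edgeR fit called 1 lower when mouse 3, 5 or 7 was left out, and so did the fit without the block.

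**Figure D1:**
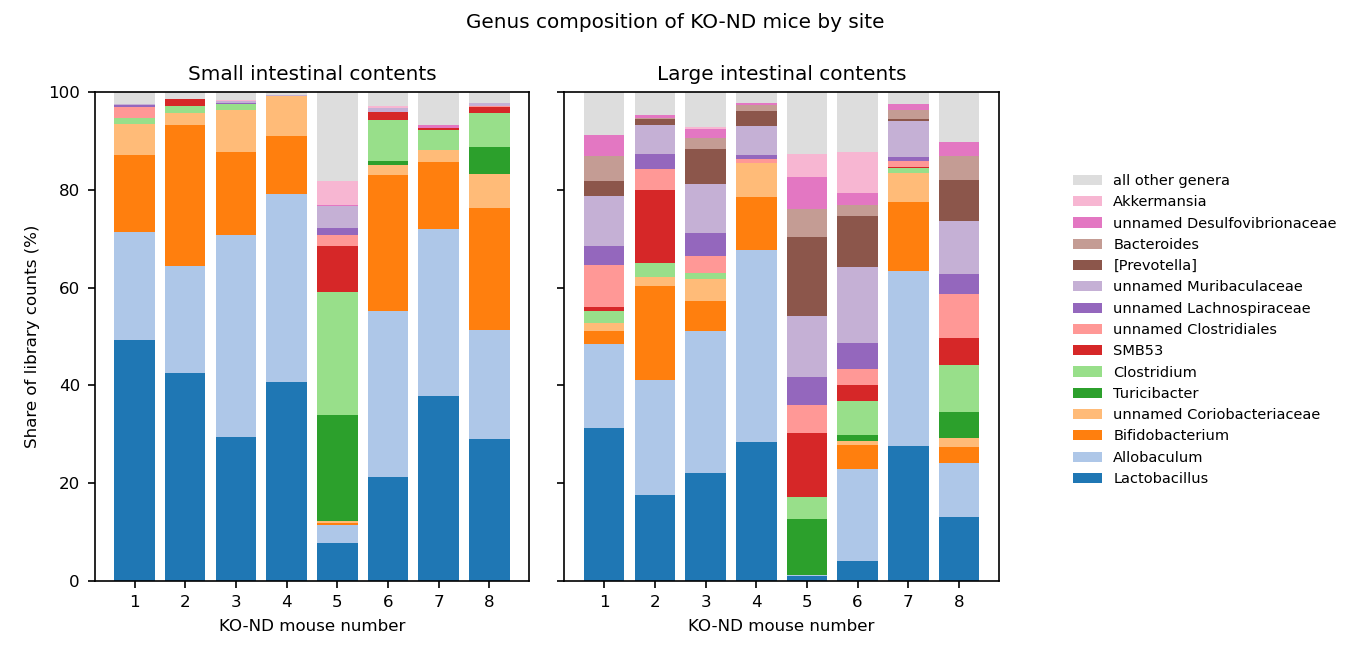
Share of library counts (%) of 14 genera, stacked, with all other genera in grey, for each KO-ND mouse in SI (left) and LI (right). Lactobacillus, Allobaculum and Bifidobacterium fill most of the SI bars except that of mouse 5, where Clostridium holds 25.3% and Turicibacter 21.7%; unnamed Muribaculaceae, [Prevotella] and Bacteroides appear as broad bands in LI.

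Among families, 17 of 26 tested were higher in LI (65.4%) and 2 were lower (7.69%), Bifidobacteriaceae and Lactobacillaceae. DESeq2 called 11 higher and 5 lower, and limma on centred log ratios 8 and 8, and both calls of lower families were lost without mouse 8 and without the block. Of 56 genera with counts in KO-ND mice, 36 had enough counts to be tested. By edgeR with the mouse as a block and an adjusted p under 0.05, 22 were higher in LI (61.1%) and 4 were lower (11.1%). Those that passed are not a random sample of genera, because 20 of the 36 had counts in fewer than 4 SI libraries, 11 of them in none, and so entered the test through LI. Counts of lists below are read against 61.1% and 11.1%. The split between directions depends on the scaling, since shares must sum to a fixed total. The median log2 fold change of the 36 genera was 4.93 with library totals, 4.49 with TMM factors, 2.98 with DESeq2 and 0.04 with centred log ratios. With the last scaling, 12 genera were called higher and 12 lower, and with DESeq2 15 and 7. All 12 and all 15 higher calls were among the 22, and both methods called the same 4 genera lower, so differences below are relative to the library's total unless another scale is named.

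**Figure D2:**
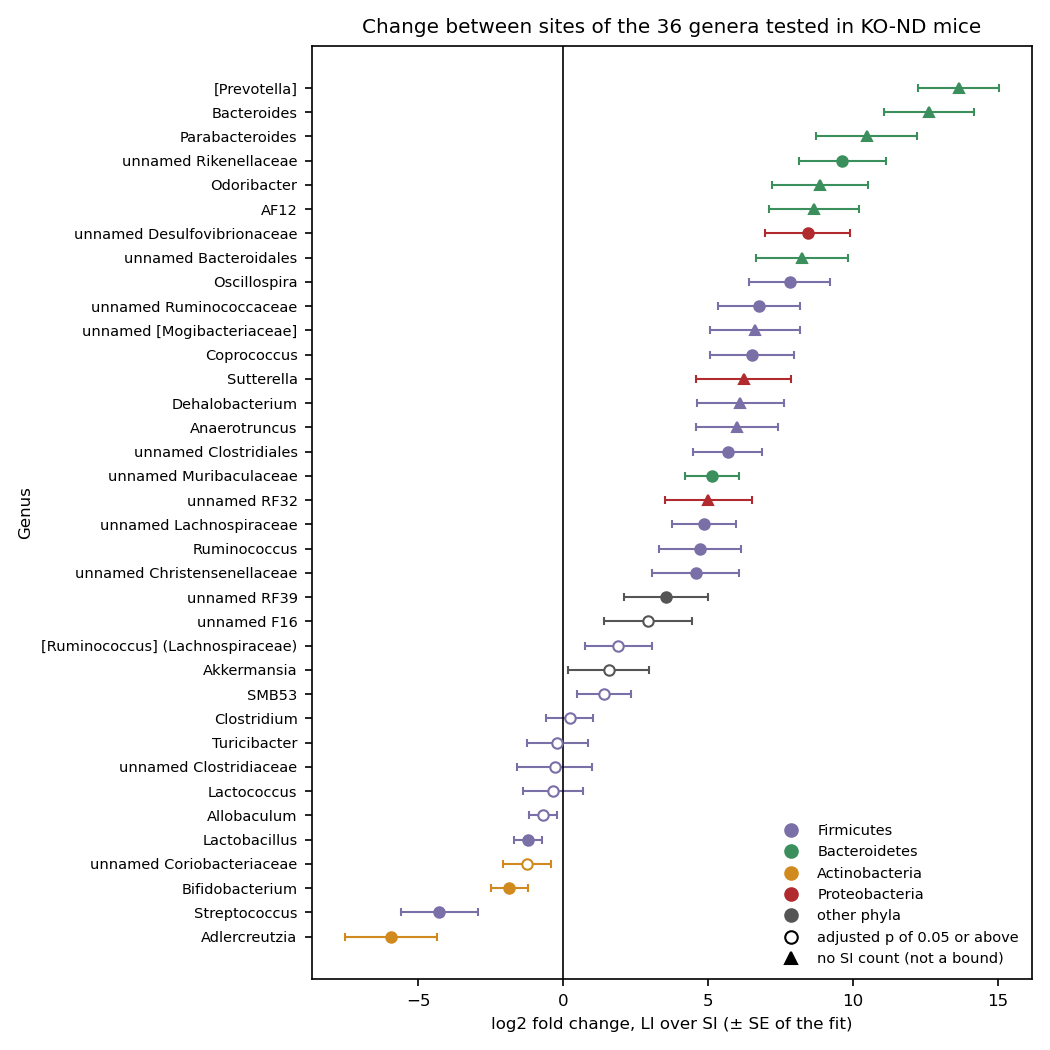
Fitted log2 fold change of LI over SI (x axis, ± SE) for the 36 genera tested, coloured by phylum. Filled symbols passed an adjusted p of 0.05, and triangles mark genera with no SI count, whose fitted value is no bound. Most Bacteroidetes genera lie at or near the top, with unnamed Muribaculaceae nearer the middle, and Adlercreutzia (-5.94) and Streptococcus (-4.27) lie at the bottom.

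The summed share of Bacteroidales ran from 0 to 4.62% in SI and from 8.20 to 38.1% in LI, with no overlap between the sites. All 8 genera tested were called higher in LI, but 7 of them had counts in fewer than 4 SI libraries and so entered the test through LI, which leaves the count little room to come out otherwise. Unnamed Muribaculaceae were the exception. The highest SI value was that of mouse 5, and without Muribaculaceae next to nothing was left of the order in SI. Unnamed Muribaculaceae (listed as S24-7 in the taxonomy), a family of mouse gut fermenters of plant and host glycans, had a share of 0 to 4.62% in SI (median 0.341%) and of 5.92 to 15.4% in LI (median 10.2%). Every LI value exceeded every SI value (log2 fold change 5.14, SE 0.94, adjusted p = 4.2e-06). On centred log ratios, where the difference is relative to the other genera, its adjusted p was 0.0509, so this call was lost with that scaling.

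Of the 9 Bacteroidales genera with counts, 7 had no count in any SI library, 6 of them among those tested. Those 6 entered the test through LI alone, so no p-value is given for them. [Prevotella], a genus of [Paraprevotellaceae] in this taxonomy, held from 0.411% (mouse 7) to 16.3% (mouse 5) of LI, with a median of 5.05%. Its mean LI share was 4546-fold the nominal SI limit of 3 counts. Bacteroides, a glycan fermenter that also deconjugates bile acids, held 0.36 to 5.73% of LI (median 2.28%), with a mean 2153-fold the nominal SI limit. Parabacteroides, a relative with a similar metabolism, held 0.0233 to 1.73% (561-fold that limit). AF12 of the Rikenellaceae (median 0.172%, mean 134-fold the limit), Odoribacter (median 0.183%, 168-fold) and Bacteroidales without a family (median 0.114%, 116-fold) had the lower LI shares. Odoribacter, a butyrate producer, was found in 7 of 8 LI libraries and the other 5 tested genera without SI counts in 8 of 8. The genus that was not tested, unnamed [Paraprevotellaceae], had counts in LI of mice 3 and 5 only. Unnamed Rikenellaceae had 2 counts in 1 SI library and a share of 0.357 to 1.14% in LI (log2 fold change 9.63, SE 1.50, adjusted p = 3.15e-07). This genus also entered the test through LI. Except for unnamed Rikenellaceae, these genera were detected in LI and not in SI at this depth, while Muribaculaceae were detected in 7 of 8 SI libraries.

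**Figure D3:**
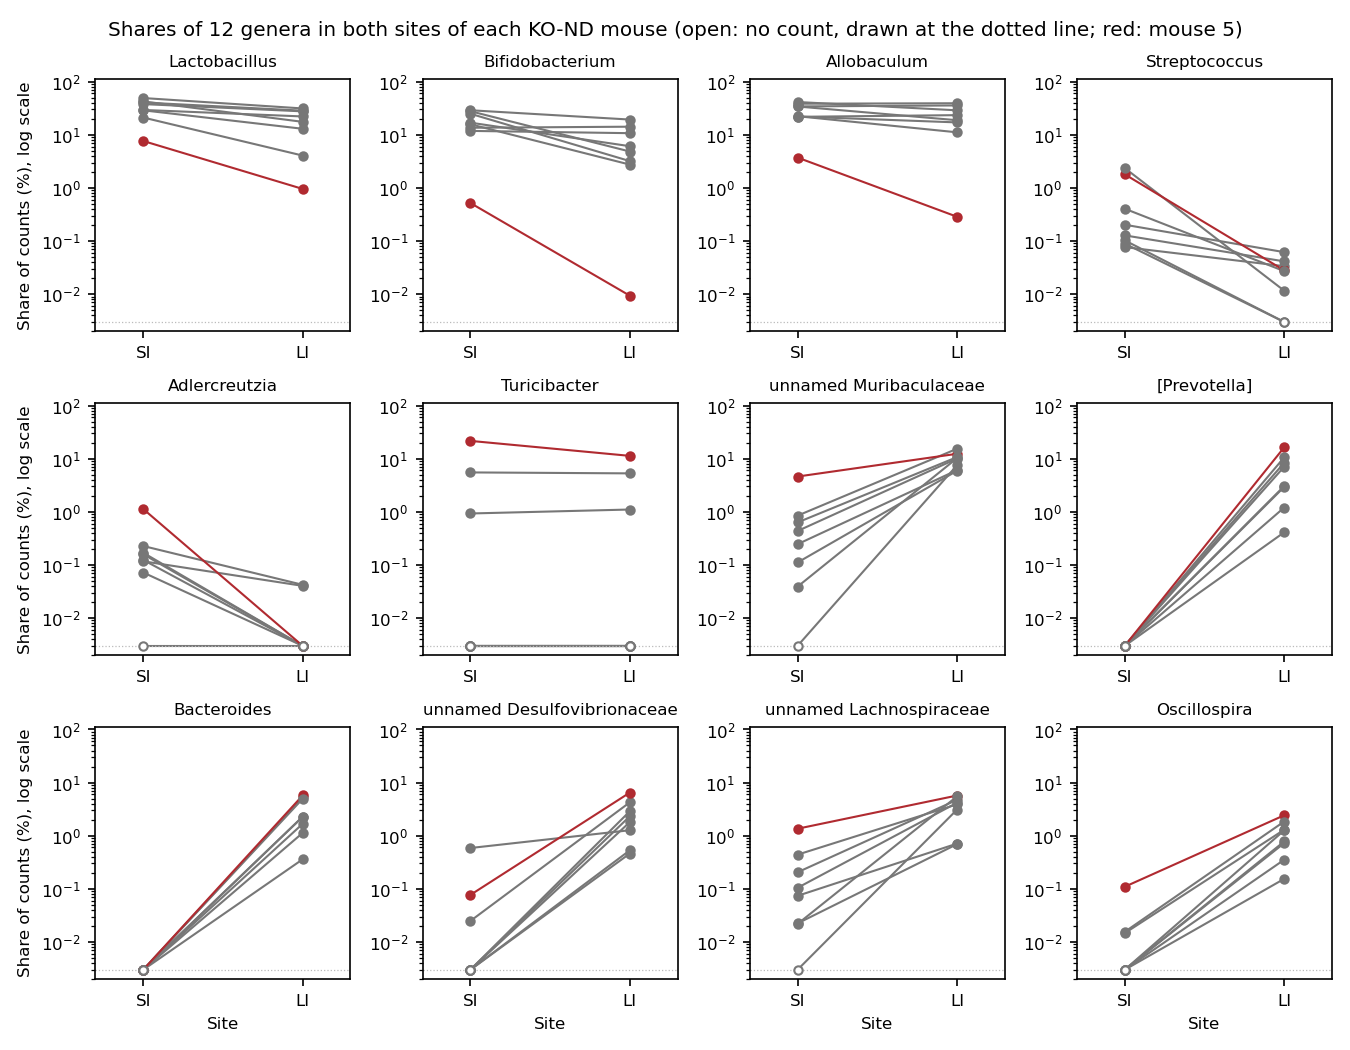
Shares of 12 genera in SI and LI (%, log scale), 1 line per KO-ND mouse, with mouse 5 in red. Open circles mark libraries with no count, drawn at a dotted line placed under the lowest share. The lines of Muribaculaceae, [Prevotella], Bacteroides, Desulfovibrionaceae, Lachnospiraceae and Oscillospira rise in all mice, and those of Lactobacillus and Streptococcus fall in all mice.

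Ruminococcaceae and Lachnospiraceae, families of spore-forming anaerobes that hold many butyrate producers, had low shares in SI. All 4 Ruminococcaceae genera tested were called higher in LI, 3 of them with counts in fewer than 4 SI libraries, and the call of Anaerotruncus was lost with DESeq2, with centred log ratios, without the filter and by the exact sign-flip test. The summed share of the family was 0.156% ± 0.330 in SI and 2.42% ± 1.91 in LI, higher in LI in 8 of 8 mice. Without mouse 5 the SI mean was 0.0407%. Oscillospira was found in 3 SI libraries with at most 0.109% and held 0.154 to 2.42% of LI (log2 fold change 7.81, SE 1.40, adjusted p = 4.2e-06). Ruminococcus, a genus with fibre-degrading members, had medians of 0.0194% in SI and 0.396% in LI (log2 fold change 4.73, SE 1.41, adjusted p = 0.00251). Its LI share in mouse 6 was 5.14%, against 1.45% or less in the other mice, and in mouse 5 the order was turned, with 0.831% in SI and 0.577% in LI. The Ruminococcus call was lost with centred log ratios (adjusted p = 0.166) and without the block. Unnamed Ruminococcaceae held at most 0.0237% of SI and 0.0698 to 0.391% of LI (log2 fold change 6.75, SE 1.43, adjusted p = 4.37e-05).

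Of the Lachnospiraceae genera 2 of 3 tested were higher in LI. Unnamed Lachnospiraceae had a share of 0 to 1.35% in SI (median 0.0893%) and of 0.694 to 5.71% in LI (median 4.03%), and each mouse had more in LI (log2 fold change 4.86, SE 1.09, adjusted p = 0.000106). Coprococcus, a butyrate producer, was found in 1 SI library, that of mouse 5, and in 7 LI libraries (log2 fold change 6.51, SE 1.45, adjusted p = 0.000103), a call lost with centred log ratios (adjusted p = 0.0721). [Ruminococcus], the Lachnospiraceae genus with mucin-degrading members, was not called (medians of 0.147% and 0.783%, log2 fold change 1.90, SE 1.16, adjusted p = 0.136), and it was lower in LI in mice 1 and 5.

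Among the other Clostridiales, 4 of 7 genera tested were higher in LI and none was lower. Clostridiales without a family had medians of 0.0814% in SI and 3.88% in LI (log2 fold change 5.67, SE 1.18, adjusted p = 3.62e-05, lost without the block), and unnamed Christensenellaceae were found in 2 SI and 7 LI libraries (log2 fold change 4.57, SE 1.48, adjusted p = 0.00505). With DESeq2, with centred log ratios, without the filter and without the block, the Christensenellaceae call was lost. The calls of Dehalobacterium and unnamed [Mogibacteriaceae] were lost with DESeq2, with centred log ratios and by the exact sign-flip test, and that of Dehalobacterium also without the filter. All 3 Clostridiaceae genera missed the threshold. Clostridium, with spore formers that can modify bile acids, had medians of 2.71% in SI and 2.60% in LI, with ranges of 0 to 25.3% and 0.116 to 9.63% (log2 fold change 0.22, SE 0.81, adjusted p = 0.832). SMB53 held 9.29% of SI in mouse 5 and at most 1.56% in the others, and it held 14.9% of LI in mouse 2 and 13.3% in mouse 5 (log2 fold change 1.41, SE 0.93, adjusted p = 0.17). Unnamed Clostridiaceae had medians of 0.734% and 0.631% (log2 fold change -0.30, SE 1.29, adjusted p = 0.843). For each of the 3 the SI and LI ranges overlapped widely.

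Of 8 Proteobacteria genera with counts, 3 were tested, and all 3 had entered the test through LI, with counts in fewer than 4 SI libraries. They were called higher in LI, but the calls of Sutterella and unnamed RF32, both without an SI count, were lost with DESeq2, with centred log ratios, without the filter and by the exact sign-flip test. Of the 5 that were not tested, 4 had counts in SI only. Unnamed Desulfovibrionaceae, sulfate reducers that release hydrogen sulfide, held 0.462 to 6.48% of LI (median 2.07%) and were found in 3 SI libraries, those of mice 1, 5 and 7, at 0.0249%, 0.0769% and 0.587%. All mice were higher in LI (log2 fold change 8.44, SE 1.47, adjusted p = 2.59e-06). In mouse 7 the ratio between the sites was smallest, with 0.587% in SI and 1.27% in LI. Akkermansia, a mucin degrader, was found in both sites of 3 mice and in neither site of the others, with 0.132%, 4.98% and 0.363% of SI and 0.451%, 4.69% and 8.58% of LI in mice 3, 5 and 6 (log2 fold change 1.57, SE 1.39, adjusted p = 0.295). Unnamed F16 of the TM7 phylum (Saccharibacteria), small bacteria that live on other bacteria, was found in 4 SI and 8 LI libraries with means of 0.133% ± 0.263 and 0.153% ± 0.0779 (log2 fold change 2.92, SE 1.52, adjusted p = 0.0784). Without mouse 5, which had 0.769% in SI, the means were 0.0425% in SI and 0.131% in LI. Chloroplast and mitochondrial sequences had no count.

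A total of 4 genera were lower in LI, and all of them belonged to Bacilli or Actinobacteria. Of the Bacilli genera tested, 2 of 4 were lower in LI and none was higher, and the summed share of the class was 37.4% ± 8.69 in SI and 20.9% ± 8.86 in LI, lower in LI in 8 of 8 mice. Lactobacillus, a lactic acid producer, had shares of 49.3, 42.6, 29.4, 40.6, 7.65, 21.2, 37.9 and 28.9% in SI of mice 1 to 8 and of 31.4, 17.5, 22.2, 28.5, 0.958, 4.07, 27.7 and 13.0% in LI. Each mouse had less in LI although the ranges overlapped (log2 fold change -1.20, SE 0.48, adjusted p = 0.0226). Without mouse 2, 6 or 8, without the mouse as a block or without the filter on low counts, this call was lost. Streptococcus, another lactic acid producer, held 0.0769 to 2.36% of SI (median 0.165%) and at most 0.0619% of LI, where every value lay under every SI value (log2 fold change -4.27, SE 1.34, adjusted p = 0.00374). The 2 highest SI shares, 2.36% in mouse 7 and 1.80% in mouse 5, came with LI shares of 0.0116% and 0.0281%. Lactococcus, a further lactic acid producer, had medians of 0.499% in SI and 0.428% in LI and was higher in LI in 4 of 8 mice (log2 fold change -0.34, SE 1.03, adjusted p = 0.813). Turicibacter was found in mice 5, 6 and 8 in both sites, with 21.7, 0.930 and 5.52% of SI and 11.3, 1.11 and 5.30% of LI, and no count in the other mice (log2 fold change -0.21, SE 1.05, adjusted p = 0.846).

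Of the Actinobacteria genera tested, 2 of 3 were lower in LI and none was higher. Bifidobacterium, a fermenter of oligosaccharides, had shares of 15.8, 29.0, 16.9, 11.8, 0.520, 27.8, 13.6 and 24.9% in SI of mice 1 to 8 and of 2.75, 19.4, 6.11, 10.7, 0.00936, 4.85, 14.2 and 3.20% in LI. It was lower in LI in 7 of 8 mice, and mouse 7 was the exception (log2 fold change -1.85, SE 0.65, adjusted p = 0.00864). Adlercreutzia, a Coriobacteriaceae genus known for converting isoflavones, was found in 7 SI libraries with up to 1.13% and in 2 LI libraries with 0.0404% and 0.0423% (log2 fold change -5.94, SE 1.58, adjusted p = 0.000779). Unnamed Coriobacteriaceae had medians of 4.41% in SI and 1.78% in LI and were lower in LI in 7 of 8 mice (log2 fold change -1.24, SE 0.83, adjusted p = 0.17). Mouse 7 was again the exception, with 2.46% in SI and 5.93% in LI. Allobaculum, an Erysipelotrichaceae genus and the only one of its family tested, had medians of 28.3% in SI and 21.2% in LI and was lower in LI in 5 of 8 mice (log2 fold change -0.69, SE 0.49, adjusted p = 0.194). The largest ratio between the sites was that of mouse 5, with 3.73% in SI and 0.287% in LI.

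LI libraries held more ASVs than SI libraries in 8 of 8 mice. Richness, the number of ASVs expected in 22550 counts, was 38.1 ± 27.6 in SI and 134 ± 32.5 in LI, a mean difference of 96.3 (range 64.0 to 130). The exact two-sided sign-flip test gave p = 0.00781, the smallest p that 8 pairs allow, and an adjusted p of 0.0117 over 3 measures. Without mouse 5, whose SI library held 104 ASVs, SI richness was 28.7 ± 8.10 with a highest value of 36.9, and the mean difference was 99.5. The Shannon index, which weighs number and evenness of ASVs, was 2.66 ± 0.755 bits in SI and 4.31 ± 0.952 in LI (difference 1.65, 8 of 8 mice, exact adjusted p = 0.0117). The gain was smallest in mouse 7 (0.410) and mouse 4 (0.914) and was 1.11 to 2.45 in the others. Pielou's evenness, which leaves out the number of ASVs, was 0.525 ± 0.0805 in SI and 0.609 ± 0.106 in LI, and was higher in LI in 6 of 8 mice (difference 0.0835, exact adjusted p = 0.0781). In mice 4 and 7 evenness was lower in LI, and without either of them the difference passed the threshold.

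**Figure D4:**
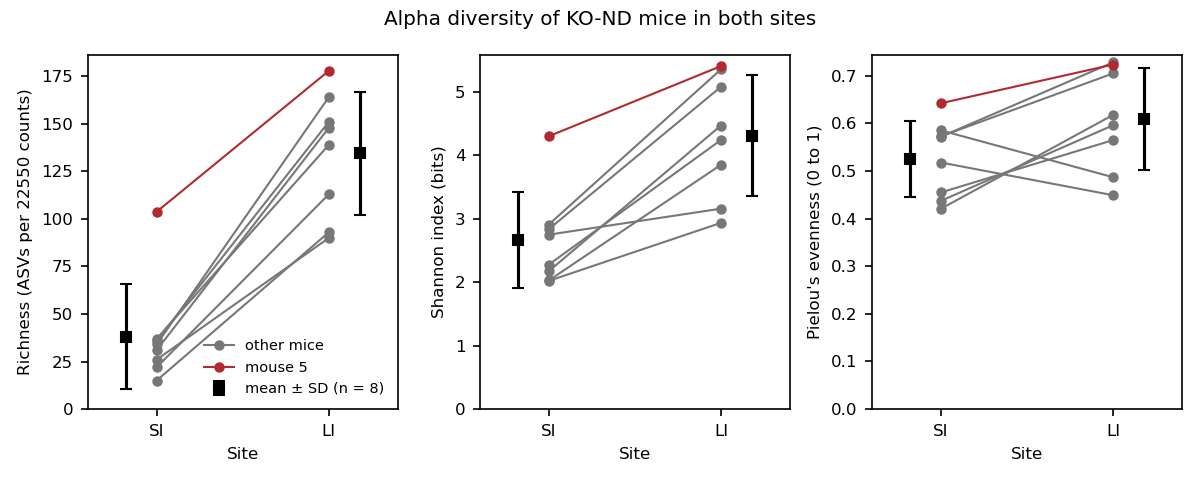
Richness (ASVs per 22550 counts), Shannon index (bits) and Pielou's evenness (0 to 1) in SI and LI, 1 line per KO-ND mouse, with mouse 5 in red and black squares for the mean ± SD (n = 8). Richness and the Shannon index rise in all mice, and evenness falls in mice 4 and 7.

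The difference in richness went with many ASVs found in LI alone. Of 429 ASVs in KO-ND mice, 112 were found in both sites, 277 in LI only and 40 in SI only, and 22 of those 40 were found in SI of mouse 5. ASVs of LI only held 19.7% of the pooled LI counts, whereas ASVs of SI only held 0.443% of the pooled SI counts. The most diverse taxa in LI were Clostridiales without a family (79 ASVs, 64 in LI only), unnamed Lachnospiraceae (66, 46 in LI only), unnamed Muribaculaceae (54, 29 in LI only) and Oscillospira (40, 35 in LI only). By contrast, all 4 Turicibacter ASVs were found in both sites, and the 6 Adlercreutzia ASVs were 2 in both sites and 4 in SI only. Of 122 ASVs tested, 75 were higher in LI (61.5%) and 4 were lower (3.28%), and 99 of the 122 had counts in fewer than 4 SI libraries.

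The dominant SI genera were each carried largely by 1 ASV. The main Lactobacillus ASV held 81.1% of the genus in SI and 88.0% in LI (means over mice), with shares of 27.5% ± 14.9 and 16.8% ± 11.2 (log2 fold change -1.09, SE 0.37, adjusted p = 0.0245). This call was lost without mouse 1, 6 or 8, without the filter, without the block and in the fit of all 4 groups. The next 2 Lactobacillus ASVs, both assigned to L. reuteri, held 1.98% ± 3.48 and 1.45% ± 1.44 of SI and 0.369% ± 0.530 and 0.654% ± 0.841 of LI, and were lower in LI in each of the 5 and 6 mice that had them, though neither passed the threshold (adjusted p = 0.0806 and 0.142). The main Bifidobacterium ASV, assigned to B. pseudolongum, was all of the genus in SI (17.6% ± 9.51 in SI and 7.65% ± 6.56 in LI, log2 fold change -1.86, SE 0.63, adjusted p = 0.0244), and its call was lost without mouse 6 and without the block. The remaining 2 ASVs called lower in LI, named here after their values were seen, were the main ASVs of Adlercreutzia (log2 fold change -5.91, SE 1.62, adjusted p = 0.0133) and Streptococcus (log2 fold change -4.39, SE 1.38, adjusted p = 0.0192). Allobaculum rested on 1 ASV in both sites (99.4% and 99.5% of the genus), and Clostridium on 1 assigned to C. celatum (93.4% and 81.4%). Muribaculaceae were made up of many ASVs instead. Of 31 tested, 25 were called higher in LI, but 26 of the 31 had counts in fewer than 4 SI libraries and entered the test through LI. The other 5 were called higher too. Its 3 most abundant ASVs averaged 0.955%, 0.842% and 0.742% in LI and 0.106%, 0.00641% and 0.0701% in SI, with log2 fold changes of 4.35 (SE 1.58), 9.33 (SE 1.38) and 7.19 (SE 1.91). The call of the first was lost without mouse 2 or 6 and with centred log ratios, and that of the third without the block. [Prevotella] again rested on 1 ASV (99.9% of the genus in LI).

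Within a mouse, most SI counts belonged to ASVs that were also found in LI. The number of ASVs per mouse was 15 to 104 in SI and 90 to 178 in LI, with 12 to 59 shared. Shared ASVs were 56.7 to 87.1% of SI ASVs and 12.9 to 33.1% of LI ASVs, and they held 93.7 to 99.9% of SI counts and 60.6 to 87.7% of LI counts. The lowest share of LI counts was that of mouse 5 and the highest that of mouse 4.

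SI and LI libraries differed as whole communities. Of the Bray-Curtis variation over the 16 libraries, 20.3% lay between the 2 sites, 67.6% between the 8 mice and 12.1% was left. Of the Jaccard variation, which counts only presence, 25.4% lay between sites and 43.7% between mice. The mouse term holds 7 of 15 degrees of freedom and the site term 1, so the sizes of these shares are not to be ranked, and the mouse term was not tested. An exact permutation test of the site's pseudo-F over all exchanges of site within mice gave p = 0.00781 for both, the smallest p the design allows. Without mouse 5 the site took up 28.9% of the Bray-Curtis variation. The mean Bray-Curtis similarity was 0.599 between an SI library and the LI library of its number and 0.436 between KO-ND libraries of different numbers, and 73.9% of SI ASVs were found in the LI library of the same number, against 53.7% in those of other numbers. Without mouse 5 the similarities were 0.626 and 0.533, so the gap between them fell from 0.163 to 0.0927. Over all pairings of the 8 SI with the 8 LI libraries, the exact one-sided p was 2.48e-05 for both, the smallest possible. By Bray-Curtis similarity, 3 of 8 SI libraries were most like the LI library of their own number, and by shared ASVs 6 of 8. LI libraries of mice 4 and 7 were the ones most like SI, with similarities of 0.854 and 0.801 to their own SI library, and several SI libraries of other mice were closest to them. These are also the mice with the lowest LI richness, 92.9 and 90.0.

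**Figure D5:**
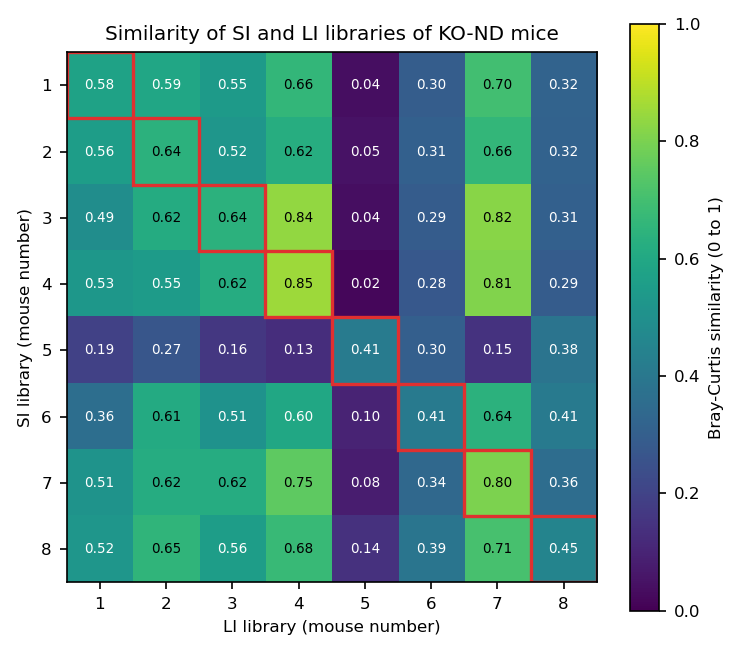
Bray-Curtis similarity (0 to 1) of each SI library (rows) to each LI library (columns) of KO-ND mice, with same-number pairs framed in red. The columns of LI libraries 4 and 7 are bright in most rows, and row and column 5 are dark except at their crossing and, in the row, at LI libraries 6 and 8.

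The shares of several genera went together in both sites of a mouse. Over 8 mice and the 7 genera of highest mean share with SI counts, log2 of the share plus 0.01% in SI and LI was correlated with adjusted exact permutation p under 0.05 for 5 genera by Pearson's r and for 2 by Spearman's rho. The values for Lactobacillus were r = 0.959 (exact p = 0.00169, adjusted 0.00885) and rho = 0.857 (exact p = 0.0107, adjusted 0.0377), and those for SMB53 r = 0.937 (exact p = 0.00253, adjusted 0.00885) and rho = 0.855 (exact p = 0.0108, adjusted 0.0377). Without the 2 mice farthest from the SI median, r was 0.631 for Lactobacillus (mice 5 and 6 left out) and 0.713 for SMB53 (mice 3 and 4, without a count in either site). These 2 relations thus also rest in part on those mice. Allobaculum had r = 0.971 (exact p = 0.00575, adjusted 0.0134) and rho = 0.762, Clostridium r = 0.880 (exact p = 0.0113, adjusted 0.0198) and rho = 0.762, and unnamed Coriobacteriaceae r = 0.862 (exact p = 0.0179, adjusted 0.0251) and rho = 0.762, where each rho had an exact p of 0.0368 (adjusted 0.0515). Their r without the 2 farthest mice was 0.712, 0.623 and 0.319, so these relations rest in good part on those mice, among them mouse 5 in each case. Bifidobacterium had r = 0.909 (exact p = 0.0741, adjusted 0.0864) and rho = 0.357 (exact p = 0.389, adjusted 0.389), and r was -0.624 without mice 2 and 5. Unnamed Muribaculaceae had r = 0.556 (exact p = 0.151, adjusted 0.151), rho = 0.714 (exact p = 0.0576, adjusted 0.0672) and r = 0.484 without the 2 farthest mice. Without mouse 4 or mouse 5, 3 genera passed by Pearson's r.

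The last comparison was whether the LI against SI change of KO-ND mice differed from that of the other groups, tested as a difference of changes over all 56 libraries and 45 genera. The 3 contrasts share the KO-ND libraries. Against KO-WD mice, 2 genera differed (4.44%), and both had a smaller change in KO-ND. The log2 change of unnamed Muribaculaceae was 5.13 in KO-ND and 10.37 in KO-WD (difference -5.24, SE 1.28, adjusted p = 0.00205). In KO-WD the family was found in 2 of 8 SI libraries, with at most 0.105%, and averaged 5.01% ± 3.83 in LI. The log2 change of Clostridiales without a family was 5.66 in KO-ND and 11.17 in KO-WD (difference -5.51, SE 1.59, adjusted p = 0.0123), and 1 of 8 KO-WD SI libraries had counts of it. Fitted changes from so few SI counts are no bounds, and on centred log ratios none of the 45 genera differed from KO-WD, with 12 at an unadjusted p under 0.05. Without mouse 1 the Clostridiales call was lost.

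Against WT-ND mice edgeR called 0 of 45 genera (0%, 7 at an unadjusted p under 0.05), DESeq2 called 1 and limma on centred log ratios 10. Of the calls on centred log ratios, 5 had a positive and 5 a negative difference. The log2 change of unnamed Muribaculaceae was 2.32 in WT-ND, where the family held 4.38% ± 4.74 of SI and 15.1% ± 5.36 of LI (n = 6), and the difference from KO-ND was 2.82 (SE 1.10, adjusted p = 0.242). That of Lactobacillus was -2.86 in WT-ND, where it held 15.7% ± 14.3 of SI and 3.76% ± 5.35 of LI, and the difference was 1.66 (SE 0.73, adjusted p = 0.267). Without mouse 5 both genera passed, with differences of 3.30 (SE 1.01) and 1.90 (SE 0.57) and an adjusted p of 0.0248 each. Against WT-WD mice edgeR called 0 of 45 genera (0%, 4 at an unadjusted p under 0.05), DESeq2 0 and limma on centred log ratios 11 (6 positive and 5 negative differences). [Prevotella], found in 8 of 8 KO-ND LI libraries, had no count in WT-ND or WT-WD mice, so those groups had no change of their own. It was still among the calls of limma on centred log ratios. Its differences there were 10.2 from WT-ND (adjusted p = 1.07e-09) and 10.0 from WT-WD (adjusted p = 1.46e-09). Such a call cannot tell another change between sites from absence in both sites. In KO-WD mice [Prevotella] was found in 7 of 8 LI libraries at a mean of 2.64% ± 1.52 and in no SI library. Unnamed Desulfovibrionaceae were also called by limma on centred log ratios, with differences of 6.85 from WT-ND (adjusted p = 1.95e-06) and 6.72 from WT-WD (adjusted p = 2.79e-06). Their family had counts in 20 libraries of the study. These were 3 SI and 8 LI libraries of KO-ND and 1 SI and 8 LI libraries of KO-WD, so no wild-type library had it. For [Prevotella] and this family, genotype cannot be told apart from the source of the animals.

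The gain in richness from SI to LI was 96.3 ± 23.4 ASVs in KO-ND, 79.0 ± 20.3 in WT-ND (n = 6), 101 ± 31.2 in KO-WD (n = 8) and 64.6 ± 12.7 in WT-WD (n = 6). The difference of 31.7 from WT-WD had an exact permutation p of 0.015 (adjusted p = 0.135 over the 9 tests of 3 measures and 3 groups). The differences of 17.4 from WT-ND and -4.35 from KO-WD had adjusted exact p of 0.764 and 0.848. None of the 9 tests passed after adjustment, and 1 had an unadjusted p under 0.05.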

How the data were processed

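The authors amplified the V3-V4 region, used FASTX-Toolkit 0.0.14 for primer matching, Sickle 1.33 for quality filtering, FLASH 1.2.11 for merging pairs, DADA2 within QIIME 2 2021.4 against noise and chimeras, and Greengenes 13_8 as taxonomy. The deposited values are raw counts of 938 ASVs, not normalized, and all are whole numbers. The smallest count above 0 is 2, so single reads do not enter richness. PCR reads carry no molecular identifiers, and the nominal limits on shares cover counting error only. The SDs and the SEs of the fits also take in differences between mice. Extraction and sequencing batches are not given in the sources used here, and a batch that followed the site cannot be told apart from it.

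Counts were summed by lineage. The test took taxa that averaged 0.01% or more over the 16 libraries and had counts in at least 4; it was run with edgeR 4.0.16 (quasi-likelihood, library totals as scaling, mouse as block) under R 4.3.3, p-values adjusted by Benjamini-Hochberg per rank, a two-sided threshold of 0.05 and the SE as the size of the log2 fold change over the square root of F. The fit was also run on simulated data, with a spread common to all taxa and changes set in both directions alike. Changes as large as the largest fitted here were not simulated, so the simulation does not bear on them. DESeq2 1.42.0, limma 3.58.1 and exact tests were alternatives. Python 3.11.15, numpy 2.4.6, pandas 2.3.3 and scipy 1.17.1 served the other steps. Genera were named that averaged 1% or more in a site, were among the 10 largest changes in a direction or, in a list by lineage, reached 0.1% in a site; ASVs were the 3 most abundant of the 8 most abundant genera. The pairing comes from the library numbers; no label states that a number is 1 animal. In a check, same-number libraries were more alike than others (exact one-sided p = 2.48e-05). Comparisons and lists were chosen with earlier results of these data known.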

Additional observations from a re-analysis of the deposited data

Results flagged for a closer look

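In 16 of 45 groups of values tested, 1 KO-ND library lay far from the other 7 of its site. Of these, 14 were values of mouse 5: in SI, the shares of unnamed Muribaculaceae (4.62%), Turicibacter (21.7%), unnamed Clostridiaceae (6.08%), Clostridium (25.3%), SMB53 (9.29%), unnamed Lachnospiraceae (1.35%), Oscillospira (0.109%), Ruminococcus (0.831%) and Akkermansia (4.98%), the richness (104 ASVs), the Shannon index (4.30 bits) and the mean Bray-Curtis distance to the other libraries (0.826), and in LI the share of Turicibacter (11.3%) and that distance (0.698). The values of 1 library are not independent of each other. The others were Ruminococcus in LI of mouse 6 (5.14%) and unnamed Desulfovibrionaceae in SI of mouse 7 (0.587%). The nominal chance rate of such flags, 5%, was not checked for skewed shares with many libraries without a count. No excess over chance is therefore read from these numbers.

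By the edgeR test of the difference itself, the change from SI to LI differed between KO-ND and KO-WD mice for unnamed Muribaculaceae (difference in log2 change -5.24) and for Clostridiales without a family (-5.51). On centred log ratios none of the 45 genera differed between these groups, and the Clostridiales call was lost without mouse 1. In KO-WD, 2 of 8 SI libraries had counts of Muribaculaceae and 1 of 8 had counts of these Clostridiales.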

How the results depend on the processing

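Genera absent from SI were absent at this depth only, and their fitted changes are no bounds. The number of calls depended on the scaling. With centred log ratios the calls were 12 genera higher and 12 lower in LI, 24 and 25 ASVs, 5 phyla in either direction, and 10, 0 and 11 genera that differed from WT-ND, KO-WD and WT-WD. With DESeq2 7 genera were lower, 35 ASVs higher and 10 lower, and 1 and 8 genera differed from WT-ND and KO-WD. The exact sign-flip test called 35 ASVs higher, 8 lower and 5 phyla, and the fit of all 4 groups 5 phyla. At a filter of 0.1%, 12 genera and 31 ASVs were higher and 12 families called in either direction, and without a filter 44 ASVs were higher. These 4 counts rest on other numbers of taxa tested. For the other changes the cause was not tested.

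Without the replicate block, 18 genera were higher and 2 lower, 2 ASVs were lower, and 3 and 5 genera differed from WT-ND and KO-WD. The calls of Lactobacillus, Bifidobacterium, Ruminococcus, unnamed Christensenellaceae and Clostridiales without a family were lost without the pairing. In every alternative in which they were tested, 11 of the 22 higher and 2 of the 4 lower genera (Adlercreutzia and Streptococcus) kept their call. With genera in place of ASVs, the evenness difference was 0.0908 and passed, and 1 of 9 group differences in alpha diversity passed.

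Leaving out 1 mouse at a time gave richness differences of 91.5 to 101, Shannon differences of 1.54 to 1.83, evenness differences of 0.0673 to 0.109, 2 to 4 phyla, 15 to 19 families, 19 to 22 genera higher and 3 to 4 lower, 54 to 71 ASVs higher and 2 to 5 lower, 3 to 5 correlated genera, 0 to 2 genera that differed from WT-ND and 1 to 3 from KO-WD. The 2 lower ASVs came without mouse 6.

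Directions that turned were all of values not called in the main test. They were Clostridium (-0.39 with TMM, -1.40 with DESeq2, -2.68 with centred log ratios and -0.74 without the block), SMB53 (-0.18 with DESeq2, -2.15 with centred log ratios), [Ruminococcus] (-0.89), unnamed F16 (-0.18) and Akkermansia (-2.45) with centred log ratios, and Akkermansia (-0.74) with DESeq2. Leaving out 1 mouse at a time gave log2 fold changes of -0.24 to 0.60 for Clostridium (lowest without mouse 4), -0.38 to 0.072 for Turicibacter (above 0 without mouse 5) and -0.94 to 0.34 for unnamed Clostridiaceae (above 0 without mouse 5 or 7), a richness difference from KO-WD of -9.16 to 0.269 (above 0 without mouse 7) and an r of -0.107 to 0.934 for Bifidobacterium (under 0 without mouse 5).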
